A study of Mus musculus with 6 samples.

Results

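Immediate early genes are the genes that cells switch on first after a stimulus, and 10 of them, Fos, Fosb, Jun, Junb, Egr1, Egr3, Atf3, Klf6, Ier5 and Cyr61, are described here in the aging cochlear lateral wall. They were taken from a fixed list and matched by symbol, and all 10 were found among the 17091 genes of the deposited table. The libraries are bulk RNA-seq of microdissected lateral wall. Young animals were 3 CBA/CaJ mice of 2 months and old animals 3 CBA/CaJ mice of 2.5 years, all of the same inbred strain. Each library came from 1 mouse, with its 2 cochleas pooled, and no treatment or allele is named for either group. The labels give no sex, the tissue label names the lateral wall, and the source label names auditory nerve cells.

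The lateral wall holds the stria vascularis, which secretes potassium into the endolymph, and the spiral ligament. All 17 lateral wall markers, such as Kcnq1, Coch and Otos, had a mean of at least 50 normalised read counts. So did 13308 of the 17091 genes, so this threshold alone cannot show which tissue was taken. Kcnq1, Coch and Otos averaged 11648, 787547 and 151382 in young and 10250, 495979 and 46735 in old. The recovered reads ranged from 37055355 to 39103398 per library, and intervals on them cover counting error only. Old replicate 3 had 45.2 normalised read counts of Xist, a transcript of the inactive X chromosome, against 24382 to 29162 in the other 5 libraries. Markers of neurons and glia were high in old replicates 2 and 3, and markers of neutrophils and red cells in old replicates 1 and 3. Where a library decides a member's value, the value without it is given. In bulk tissue, fewer cells of a type and less RNA per cell cannot be told apart.

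Immediate early genes need no new protein to be transcribed, and their transcripts are made and degraded within minutes of a growth factor, depolarisation, mechanical stress or tissue handling. Fos and Jun proteins pair into the transcription factor AP-1, Egr1 and Egr3 are zinc finger factors that follow the MAP kinase pathway, and Atf3 is a stress-induced factor of the Atf/Creb family. Klf6 is a zinc finger factor of injured tissue, Ier5 takes part in the heat shock response, and Cyr61 (also named Ccn1) is a secreted matrix protein driven by serum response factor and by the Hippo pathway factors Yap and Tead. In the cochlea, several of these genes are known to be induced by loud sound.

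Promoters of 5 members are shown because these genes had different patterns across the libraries. Fos, Fosb and Junb had their highest values in old replicates 2 or 3, Cyr61 was lower in every old mouse, and Ier5 was the steadiest member. Jun and Egr1 were also highest in old replicates 3 and 2, and the Jun promoter, not shown, holds none of the marked motifs. A link between motifs and library patterns was not tested. The sequences are from RefSeq (GRCm38.p6, the assembly that mm10 names) and run 5′ to 3′ on the strand of the gene, from 250 bases before to 50 bases after the annotated start. Capitals mark the TATA box TATAAA and TGACG, the core of the cyclic AMP response element, or its reverse complement CGTCA.
Fos, chr12:85473640-85473939, plus strand: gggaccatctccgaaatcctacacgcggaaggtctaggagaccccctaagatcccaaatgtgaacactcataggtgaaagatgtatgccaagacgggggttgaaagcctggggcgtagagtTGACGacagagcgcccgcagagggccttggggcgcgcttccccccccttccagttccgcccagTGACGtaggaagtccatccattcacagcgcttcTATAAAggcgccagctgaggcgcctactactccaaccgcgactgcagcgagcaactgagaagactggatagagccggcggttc
Fosb, chr7:19309996-19310295, minus strand: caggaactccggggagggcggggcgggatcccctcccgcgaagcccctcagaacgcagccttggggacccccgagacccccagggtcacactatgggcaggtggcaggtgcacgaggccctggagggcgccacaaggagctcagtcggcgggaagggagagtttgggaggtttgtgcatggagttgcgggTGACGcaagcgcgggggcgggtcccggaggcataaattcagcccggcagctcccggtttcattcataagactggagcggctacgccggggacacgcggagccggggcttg
Junb, chr8:84978699-84978998, minus strand: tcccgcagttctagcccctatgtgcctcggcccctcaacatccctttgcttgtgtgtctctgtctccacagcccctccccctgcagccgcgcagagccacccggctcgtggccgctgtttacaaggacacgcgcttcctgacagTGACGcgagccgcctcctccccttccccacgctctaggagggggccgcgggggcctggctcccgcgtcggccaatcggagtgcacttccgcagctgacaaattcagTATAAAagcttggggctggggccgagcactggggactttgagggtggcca
Cyr61, chr3:145649936-145650235, minus strand: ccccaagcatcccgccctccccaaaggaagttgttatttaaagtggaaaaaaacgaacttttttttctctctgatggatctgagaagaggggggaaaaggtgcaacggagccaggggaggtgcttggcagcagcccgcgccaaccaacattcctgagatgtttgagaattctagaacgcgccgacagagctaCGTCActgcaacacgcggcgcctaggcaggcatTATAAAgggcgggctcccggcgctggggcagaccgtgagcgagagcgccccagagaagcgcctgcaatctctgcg
Ier5, chr1:155099587-155099886, minus strand: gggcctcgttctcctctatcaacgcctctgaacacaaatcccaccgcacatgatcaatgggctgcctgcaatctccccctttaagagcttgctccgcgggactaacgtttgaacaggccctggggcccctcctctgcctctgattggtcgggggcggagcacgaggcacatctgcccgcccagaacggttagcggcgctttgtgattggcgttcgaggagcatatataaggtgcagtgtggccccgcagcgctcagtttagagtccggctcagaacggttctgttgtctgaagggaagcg

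Of the 10 members, 8 had an entry in the promoter table, and Egr1 and Egr3 had none. TATAAA was found on either strand in 3 of the 8 promoters (Fos, Junb and Cyr61), and 13.6% of 32851 promoters of the same length hold it. The matches of Fos and Cyr61 began at positions −33 and −25 from the start. That of Junb began at position 1, the RefSeq start, and the GENCODE start of Junb lies 30 bases further downstream. The window of Atf3 is that of a RefSeq start at 191183333, inside the gene, whereas the GENCODE start is at 191218039. TGACG was found in 5 of the 8 (Fos, Fosb, Junb, Atf3 and Cyr61), against 20.8% of all promoters, with 2 copies in Fos at positions −129 and −66. In the 100 bases before the start alone, TATAAA was found in 2 of the 8 and TGACG in 4, against 5.56% and 10.5% of all promoters. The full element TGACGTCA, which contains TGACG, the AP-1 site TGACTCA and the CArG box of serum response factor were found in 0 of the 8 windows. These motifs occur in 1.79%, 5.20% and 1.63% of all promoters. The windows begin 250 bases before the start, so sites further upstream were not searched. The 8 promoters had a G and C content of 57.0% to 68.3%, and the median of all promoters was 52.7%.

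None of the 10 members passed the test between old and young lateral wall. The test was limma on log2(value + 1) of the normalised read counts, with Benjamini-Hochberg adjustment over all 17091 genes and a threshold of 0.05, and it called 5.25% of all genes, 2.71% higher and 2.55% lower in old. At an unadjusted p under 0.05 stood 5 of the 10 members (Fos, Jun, Klf6 and Ier5 higher, Cyr61 lower), and 21.3% of all genes. The median log2 fold change of the members, old minus young, was 0.49, and that of all genes was −0.00, with 8 of 10 members above 0. Without 1 library the members' median ranged from 0.33 (without old replicate 2) to 0.71 (without young replicate 3). DESeq2 on the recovered reads called 4 of the 10 at an adjusted p under 0.05, Fos, Klf6 and Ier5 higher and Cyr61 lower, where it called 10.6% of all genes (5.71% higher and 4.93% lower). The authors' deposited table is named for DESeq2 and rests on the same reads, so its calls are not independent of these. It holds adjusted p-values under 0.05 for these 4 members and for 10.6% of all genes, 5.7% higher and 4.93% lower. Its signed fold changes are 3.52 for Fos (adjusted p = 0.0467), 1.43 for Klf6 (0.0212), 1.39 for Ier5 (0.0379) and −1.52 for Cyr61 (0.0198). The edgeR quasi-likelihood test on the recovered reads called 0 of the 10, with 5 members at an unadjusted p under 0.05. It called 5.0% of all genes with TMM scaling (2.76% higher and 2.24% lower) and 5.04% with DESeq2 size factors (2.71% and 2.32%).

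**Figure D1:**
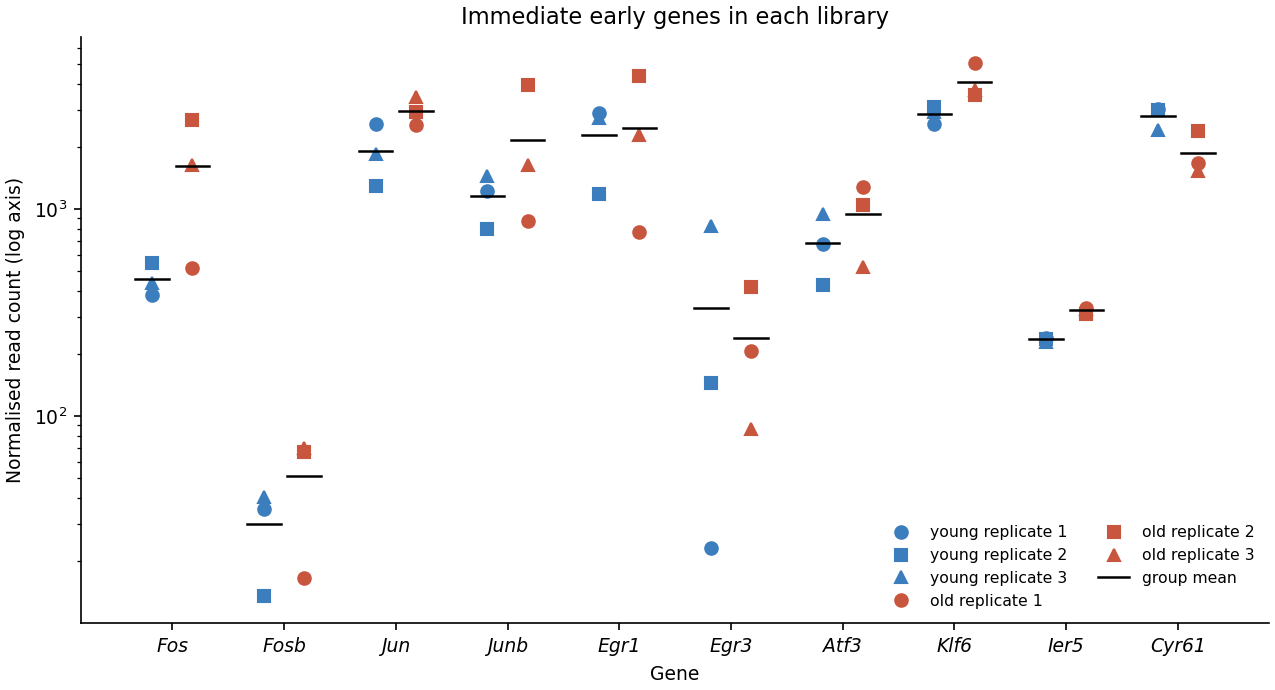
Normalised read counts of the 10 immediate early genes (log axis) in each of the 3 young (blue) and 3 old (red) libraries, with symbols for the replicate and black lines for group means. Fos stood at 1635 and 2672 in old replicates 3 and 2 and at 383 to 550 in the other 4 libraries, Egr3 ranged from 23.1 to 826, and Ier5 formed 2 tight groups at 228 to 238 and 312 to 332.

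Among the AP-1 genes, Fos had the largest difference, carried by 2 of the 3 old mice. Gene positions here and below are on GRCm38, from GENCODE M21. Fos, the gene of the c-Fos subunit (chr12:85473890-85477273), stood at 383, 550 and 438 normalised read counts in young replicates 1, 2 and 3 and at 519, 2672 and 1635 in old replicates 1, 2 and 3. Old replicates 2 and 3 lay above every young library, whereas old replicate 1 lay within the young range. The group means were 457 ± 85.0 in young and 1609 ± 1077 in old (SD, n = 3 each), 1.54 ± 0.57 apart on the log2 scale (SE; adjusted p = 0.190 by limma). Without old replicate 1 the log2 fold change was 2.21 and was called (limma adjusted p = 0.00271), and without old replicates 2 or 3 it was 1.03 (0.307) and 1.38 (0.319).

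Fosb (chr7:19302696-19310051) encodes a related subunit that pairs with the same Jun partners. Its 35.7, 13.5 and 40.8 normalised read counts in young replicates 1 to 3 and 16.5, 67.1 and 70.1 in old replicates 1 to 3 rest on few reads. In young replicate 2 there were 13 recovered reads with a 95% counting interval of 6.92 to 22.2, and in old replicate 3 there were 73 with an interval of 57.2 to 91.8. As with Fos, old replicates 2 and 3 were the highest and old replicate 1 lay within the young range, and the log2 fold change was 0.64 ± 0.62 (SE, limma adjusted p = 0.608). The Fosb difference was 1.31 without old replicate 1, 0.33 and 0.30 without old replicates 2 and 3, and 0.17 without young replicate 2.

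Jun, the principal partner of Fos (chr4:95049034-95052222), had 2584, 1290 and 1834 normalised read counts in young replicates 1, 2 and 3 and 2552, 2944 and 3463 in old replicates 1, 2 and 3. The groups overlapped because young replicate 1 stood just above old replicate 1. The log2 fold change was 0.70 ± 0.24 (SE, limma adjusted p = 0.140), and it was called without young replicate 1 (0.95, limma adjusted p = 0.0438). Without young replicate 2 it was 0.44 (0.297) and without old replicate 3 it was 0.58 (0.273). Junb, a Jun family member with weaker activating function (chr8:84974484-84978718), stood at 1221, 801 and 1439 in young replicates 1 to 3 and at 876, 3962 and 1630 in old replicates 1 to 3. Old replicate 2 had the highest Junb level and old replicate 1 was within the young range, so the log2 fold change of 0.67 had a 95% interval from −0.62 to 1.96 (limma adjusted p = 0.540). The difference of Junb was 0.09 without old replicate 2, 0.43 without young replicate 2 and 1.18 without old replicate 1. The Jun gene overlaps Junos and the end of the Junb gene overlaps Prdx2, each on the opposite strand, and since strand is not stated, reads of these pairs cannot be told apart.

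Atf3, which pairs with Jun proteins and is known for its induction by injury (chr1:191170296-191218039), had 679, 428 and 943 normalised read counts in young replicates 1 to 3. In old replicates 1 to 3 it had 1269, 1048 and 523. Old replicates 1 and 2 lay above all young libraries and old replicate 3 lay within them, an order unlike that of Fos. The log2 fold change was 0.45, with a 95% interval from −0.46 to 1.35 (limma adjusted p = 0.566). Leaving out young replicates 2 or 3 gave 0.15 and 0.72. It was 0.19 and 0.33 without old replicates 1 and 2, and 0.83 without old replicate 3, and none of these was called. The small gene Gm24748 lies within Atf3 on the opposite strand.

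The Egr genes had no direction that held across settings. Egr1 stood at 2919, 1177 and 2746 normalised read counts in young replicates 1, 2 and 3 and at 776, 4372 and 2265 in old replicates 1, 2 and 3. The lowest and the highest library were both old, and the young values lay between them. Its log2 fold change was −0.10, with a 95% interval from −1.69 to 1.49 (limma adjusted p = 0.953). The old mean was 1.08 times the young mean, and the difference was above 0 with edgeR and DESeq2 and without young replicate 1, young replicate 3 or old replicate 1.

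Egr3 (chr14:70077203-70082614) varied more than any other member. It had 23.1, 144 and 826 normalised read counts in young replicates 1, 2 and 3 and 207, 418 and 86.5 in old replicates 1, 2 and 3. Both its lowest and its highest library were young, 35.8-fold apart, at 22 and 809 recovered reads with 95% counting intervals of 13.8 to 33.3 and 754 to 867. The log2 fold change was 0.47, with a 95% interval from −2.59 to 3.52 (limma adjusted p = 0.879), while the old mean was 0.716 times the young mean. The difference was below 0 with edgeR and DESeq2, in the authors' deposited table, and without young replicate 1 or old replicate 2.

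Klf6, Ier5 and Cyr61 were the only members whose groups did not overlap, 2 higher and 1 lower in old. Of all genes, 13.2% had every old value above every young value and 12.8% had every old value below, so 3 of 10 is near the share of all genes (26.1%). Klf6, a Krüppel-like factor (chr13:5861482-5870394), had 2557, 3111 and 2937 normalised read counts in young replicates 1 to 3 and 5043, 3536 and 3767 in old replicates 1 to 3. All old mice stood above all young mice, with old replicate 1 the highest. The log2 fold change was 0.51 ± 0.14 (SE, limma adjusted p = 0.0807, higher in 3 of 3 old mice). Without old replicate 2, the old library nearest to the young, it was 0.61 and was called (limma adjusted p = 0.0388), and without old replicate 1 it was 0.35 (0.164).

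Ier5 (chr1:155096361-155099636) had 238, 236 and 228 normalised read counts in young replicates 1, 2 and 3 and 332, 312 and 330 in old replicates 1, 2 and 3. The old mean was 1.39 times the young mean, and the spread within each group (SD 5.62 and 10.7) was small against the difference of the means, 234 and 324. The log2 fold change was 0.47 ± 0.15 (SE, limma adjusted p = 0.108). On the log2 scale the SD within a group, 0.03 in young and 0.05 in old, was below the 0.08 to 0.10 that counting error alone would give for 1 library.

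Cyr61 (chr3:145646976-145649981) was the member with lower values in every old mouse. It stood at 3051, 3019 and 2399 normalised read counts in young replicates 1, 2 and 3 and at 1666, 2372 and 1531 in old replicates 1, 2 and 3. Old replicate 2 nearly reached young replicate 3, and the other values were apart. The mean was 2823 ± 367 in young and 1856 ± 452 in old (SD, n = 3 each), −0.62 ± 0.17 apart on the log2 scale, old minus young (SE; adjusted p = 0.0775 by limma). Without old replicate 2 it was −0.81 and was called (limma adjusted p = 0.00793), and without old replicates 1 or 3 it was −0.56 (0.166) and −0.50 (0.158).

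**Figure D2:**
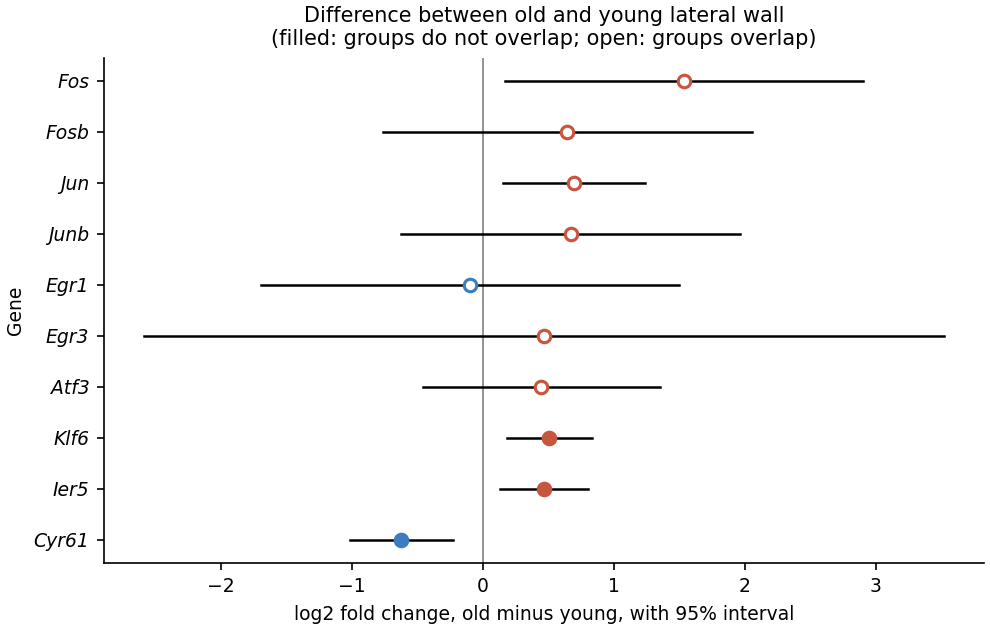
Log2 fold change of each immediate early gene, old minus young, with its 95% interval from limma. Filled points mark the 3 genes whose groups did not overlap, Klf6 (0.51), Ier5 (0.47) and Cyr61 (−0.62), and the widest interval, from −2.59 to 3.52, is that of Egr3.

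Levels of different genes can be compared only per length, here as normalised read counts per kilobase of the merged exons of GENCODE M21. In the young mice Cyr61 was the highest at 1398 ± 182 per kilobase (SD, n = 3). Klf6 (653 ± 64.5), Jun (597 ± 204), Egr1 (509 ± 214) and Junb (501 ± 141) followed and did not differ from their neighbours beyond their spread. Atf3 (317 ± 120) and Fos (194 ± 36.1) came next, then Egr3 (75.1 ± 98.2) and Ier5 (71.5 ± 1.72), which lay within the spread of Egr3. Fosb was the lowest at 4.81 ± 2.33 per kilobase. In the old mice Klf6 (937 ± 185), Junb (937 ± 699), Jun (936 ± 143) and Cyr61 (919 ± 224) stood at like levels per kilobase, Fos was at 684 ± 458, and Fosb was again the lowest at 8.21 ± 4.83.

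The members differed more between animals of 1 group than most genes did. The comparison set was the 13308 genes with a mean of 50 or more, whose SD among the 3 libraries, on the log2 scale, had a median of 0.14 in young and 0.18 in old. Over the 10 members the median SD was 0.47 in young and 0.88 in old, and in each group 9 of the 10 lay above the median of those genes. The 95th percentile of those genes was 0.45 in young and 0.62 in old, and 5 and 6 members lay above it. Fosb, whose mean is under 50 and whose SD holds more counting error, is not in the comparison set but is among the members counted above both values in each group. Egr3 in young mice had an SD of 2.55, and Egr1, Fos, Fosb, Egr3 and Junb in old mice had 1.26, 1.21, 1.15, 1.13 and 1.09. Ier5 was the exception at the other end, near the 6th percentile in both groups (5.76 and 6.36). Counting error for 1 library is an SD of 0.03 to 0.08 for Fos and 0.17 to 0.40 for Fosb.

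**Figure D3:**
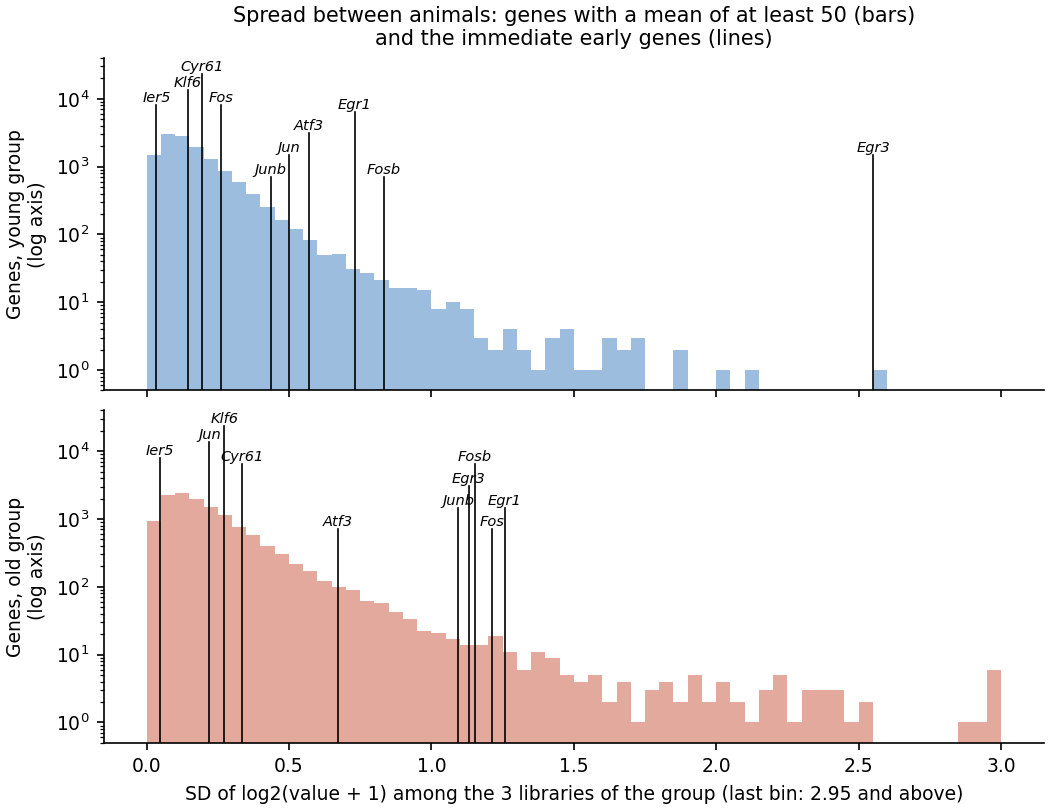
Histograms of the SD of log2(value + 1) among the 3 libraries of a group for 13308 genes whose mean is 50 or more (log axis for the number of genes; the last bin holds all larger values), with lines at the SD of each member. In young mice Egr3 lies at 2.55, and in old mice Egr1, Fos, Fosb, Egr3 and Junb lie between 1.09 and 1.26.

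The libraries did not order the members in 1 way. Old replicate 2 was the highest library for Fos, Junb and Egr1, old replicate 3 for Fosb and Jun, and old replicate 1 for Atf3, Klf6 and Ier5. Young replicate 2 was the lowest library for Fosb, Jun, Junb and Atf3. Measured from the young mean of each gene on the log2 scale, the median deviation of the members was 0.34, 0.87 and 0.44 in old replicates 1, 2 and 3 and 0.09, −0.23 and 0.20 in young replicates 1, 2 and 3. Of the 10 members, 9 stood above their young mean in old replicate 2, 6 in old replicate 1 and 7 in old replicate 3, and the young replicates 1, 2 and 3 had 7, 5 and 7.

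Markers of nerve tissue were high in the same 2 old libraries as Fos and Fosb. The median deviation of 12 neuron and glia markers from the young mean was −0.04, 2.38 and 1.84 in old replicates 1, 2 and 3, where Fos had 0.20, 2.56 and 1.85 on the same log2 scale. Their summed level was 22653 to 27782 normalised read counts in young and 28184, 39633 and 44789 in old replicates 1 to 3, and none of the 12 was at 0 in any library. Nefl, the neurofilament light chain gene, stood at 12.3 to 58.1 in the young libraries and old replicate 1 and at 815 and 890 in old replicates 2 and 3. Of the 12 markers 1 rose and 0 fell (limma), where 2.71% of all genes rose and 2.55% fell. The part of nerve tissue in the Fos, Fosb and Junb values was not tested.

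Neutrophil and red cell markers were highest in old replicates 1 and 3. The summed level of 12 neutrophil markers was 359.9 to 561 in young and 5914, 834 and 11537 in old replicates 1, 2 and 3, and that of 10 red cell markers was 2896 to 4969 in young and 22000, 7145 and 43393 in old. Among the old libraries, both lists were lowest in replicate 2, where Fos, Junb and Egr1 were highest. They were highest in replicate 3, where Fos, at 1635, also lay above every young library. Of these markers 2 of 12 and 0 of 10 rose and 0 fell (limma), where 2.71% of all genes rose and 2.55% fell. At an unadjusted p under 0.05 stood 12 and 9 of them, all higher, and 21.3% of all genes in either direction. Epb42 was at 0 in 3 libraries. Of 12 macrophage markers 8 rose and 0 fell, against the same 2.71% and 2.55% of all genes. Csf1r and Mrc1 were among the 4 not called, with log2 fold changes of 0.14 and −0.29. The summed level of the macrophage markers was 7947 to 9454 in young and 25372, 26031 and 35694 in old replicates 1 to 3. For the neutrophil, red cell and macrophage lists alike, every old sum lay above every young sum. The part of these cells in the members' values was not tested.

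**Figure D4:**
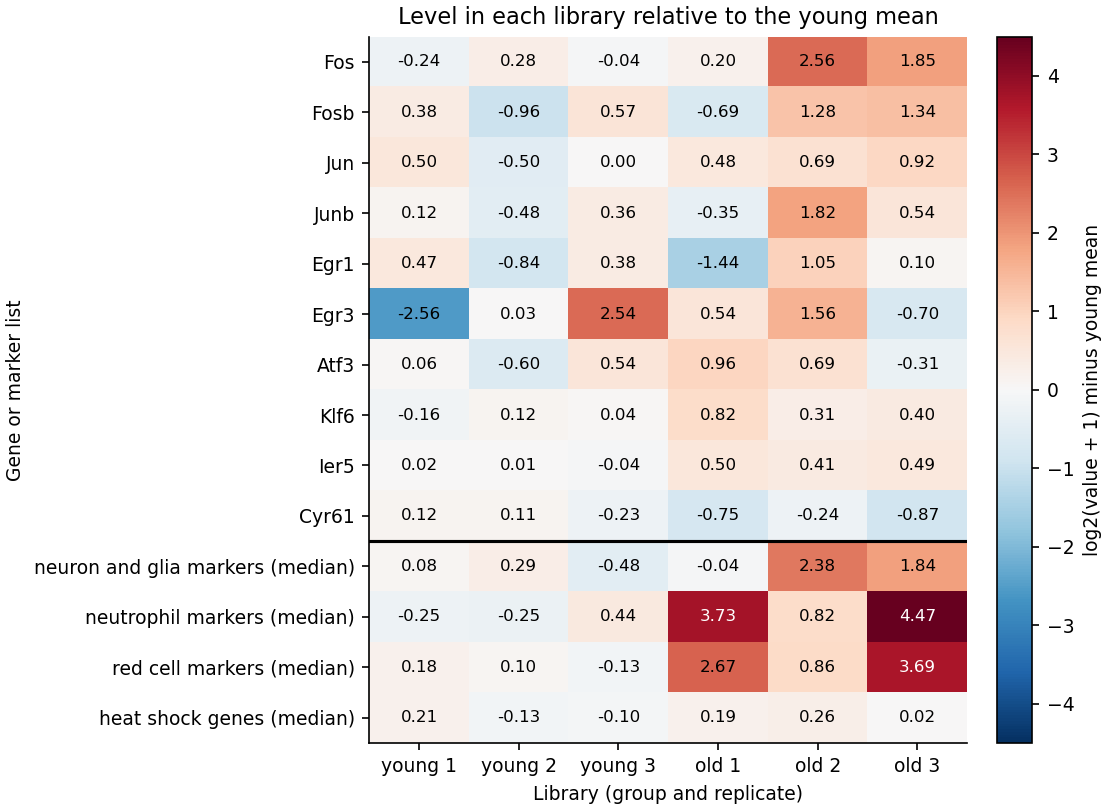
Level of each immediate early gene in each library as log2(value + 1) minus its young mean (colour and printed value), with the medians of 4 marker lists below the line. Fos and the nerve markers share high values in old replicates 2 and 3 (2.56 and 1.85 against 2.38 and 1.84), while neutrophil and red cell markers are highest in old replicates 1 and 3.

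The wider early response was read from 7 lists of 109 other genes. Of these, 1 rose (0.917%) and 4 fell (3.67%), near the shares of all genes (2.71% and 2.55%), and their median log2 fold change was 0.05. DESeq2 called 5 higher and 8 lower of the 109, where it called 5.71% of all genes higher and 4.93% lower. Of 10 other genes of AP-1 subunits, 0 were called by limma, with 2 at an unadjusted p under 0.05, both lower. Mafk, a small Maf gene, had −0.45 ± 0.11 (limma adjusted p = 0.0532) and Jund, the Jun gene that is expressed without a stimulus, −0.33 ± 0.11 (0.129). Jdp2, which encodes a repressor of AP-1, had 0.29 ± 0.13 (0.248). Fosl2, a further Fos family gene chosen after its values were seen, stood at 676, 1030 and 3915 in young replicates 1, 2 and 3 and at 1981 to 2236 in old, so that the old libraries lay between the young ones (log2 fold change 0.60, limma adjusted p = 0.636). DESeq2 called 1 of the 10, Mafk.

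Of 16 tested genes of other early nuclear regulators, 1 rose and 0 fell. Myc, a regulator of growth, rose from 27.6 ± 3.86 to 85.1 ± 20.7 normalised read counts (SD, n = 3 each), a rise of 1.57 ± 0.30 on the log2 scale (SE; adjusted p = 0.0206 by limma). The call did not hold without young replicates 1, 2 or 3 or without old replicate 3 (limma adjusted p up to 0.0987). Klf10 and Cebpd had 0.53 ± 0.15 and 0.60 ± 0.17 with limma adjusted p of 0.0835 and 0.0876, and DESeq2 called both (adjusted p of 0.0202 and 0.0267), 3 of the 16 in all. Egr2 and Nr4a1 were looked at after their values were seen. Egr2, an Egr gene known for its role in myelinating Schwann cells, stood at 23.9 to 73.4 in young and at 27.1, 376 and 132 in old replicates 1, 2 and 3 (limma adjusted p = 0.396). It was highest in the 2 libraries with high Nefl, and the part of nerve tissue in the Egr2 values was not tested. Nr4a1, an early-response nuclear receptor, stood at 1309 to 3079 in young and at 1554, 4184 and 2078 in old replicates 1 to 3 (limma adjusted p = 0.681).

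Of 20 effector genes and 18 feedback genes of the early response, limma called 0 of either list, with 4 and 2 at an unadjusted p under 0.05, and DESeq2 called 1 of each. Plk2, a stress-induced kinase, had a log2 fold change of 0.58 ± 0.17 (limma adjusted p = 0.0911), Sgk1, a kinase that responds to steroid hormones, −0.33 ± 0.12 (0.164), and Arc, a gene of synaptic plasticity, 1.13 ± 0.44 (0.175). Among the feedback genes Spred2, an inhibitor of the Ras pathway, had −0.46 ± 0.15 (0.108), the phosphatase gene Dusp2 had 1.62 ± 0.52 (0.110) and the mRNA decay factor gene Zfp36l2 had 0.27 ± 0.13 (0.258). The antiproliferative gene Btg2, named after its values were seen, was highest in old replicate 2 at 4222 against 1332 to 2153 in the other 5 libraries, the same library as Junb and Egr1.

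Of 24 upstream kinases and transcription factors, 1 fell and 0 rose, and the median log2 fold change was −0.02. Elk1, the partner of serum response factor at early gene promoters, fell from 974 ± 57.6 to 674 ± 30.5 normalised read counts (SD, n = 3 each), −0.53 ± 0.11 on the log2 scale (SE; adjusted p = 0.0318 by limma). That call was lost without young replicates 2 or 3 and without old replicates 1 or 2 (adjusted p up to 0.157). The transcripts of Atf2 and Map2k4, a factor and a kinase of the stress pathway, had 0.17 ± 0.09 and −0.18 ± 0.10 (limma adjusted p of 0.310 and 0.337). Of 11 heat shock genes, limma called 0, with 1 at an unadjusted p under 0.05, and DESeq2 called 1. Hspa8, Hspa1a and Hspa1b had 0.50 ± 0.15, 0.30 ± 0.17 and 0.40 ± 0.24 (limma adjusted p of 0.0902, 0.353 and 0.388), and the list median was 0.20.

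Ctgf and Wisp1, relatives of Cyr61 in the CCN family, fell in old lateral wall. Of 10 genes of the CCN family and of the Yap and Tead response, 3 fell and 0 rose (30.0% lower, against 2.55% of all genes). In 7 of the 10 every old value lay below every young value (12.8% of all genes), and the median log2 fold change was −0.41. The list was chosen with earlier results of these data known, so these shares are a description and no test. Ankrd1, among the 7, had few reads, at 3.06 to 3.15 normalised read counts in young and 0 to 2.84 in old. Ctgf, which encodes the closest relative of Cyr61 and is also induced by Yap, stood at 14065, 19862 and 17281 normalised read counts in young replicates 1 to 3 and at 9666, 8319 and 5131 in old replicates 1 to 3. It fell by 1.18 on the log2 scale (SE 0.23, limma adjusted p = 0.0285). Wisp1, the CCN family gene that bone and fibroblasts express, stood at 506, 476 and 513 in young and at 220, 80.4 and 134 in old, a fall with a log2 fold change of −1.89 ± 0.32 (limma adjusted p = 0.0148). Tead1, a DNA-binding partner of Yap, fell by 0.38 (SE 0.09, limma adjusted p = 0.0433). The other listed CCN genes, Nov and Wisp2, had overlapping groups and log2 fold changes of 0.33 and 0.11. The call of Ctgf did not hold without young replicates 2 or 3 or old replicate 2 (limma adjusted p up to 0.114), that of Wisp1 without any 1 of the young replicates (up to 0.0705), and that of Tead1 held only without old replicate 3 (otherwise up to 0.199). Bone and muscle markers were lower in the same libraries: 6 of 12 fell and 0 rose, their summed level was 2981 to 5390 in young and 1083 to 1249 in old, and 2 of them were at 0 in at least 1 library. The part of bone and muscle tissue in the Cyr61, Ctgf and Wisp1 values was not tested.

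**Figure D5:**
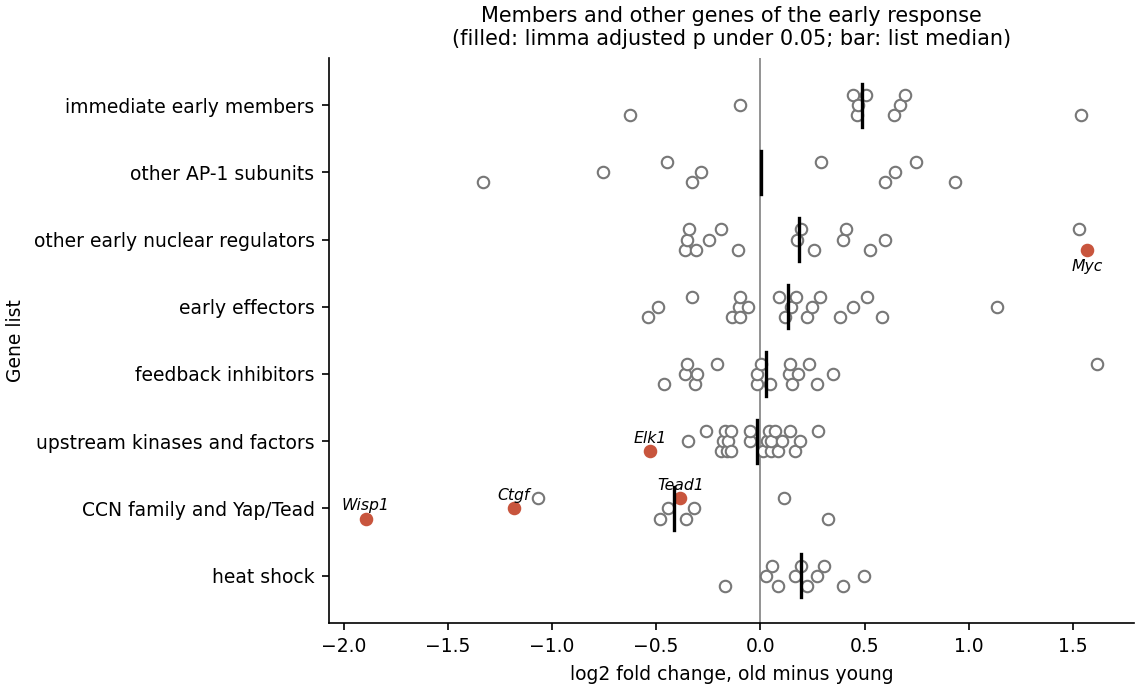
Log2 fold change, old minus young, of the 10 members and of 109 other genes in 7 lists, each point a gene and each bar the median of a list. Filled points mark the genes that passed at a limma adjusted p under 0.05, Myc (1.57) above 0 and Elk1 (−0.53), Tead1 (−0.38), Ctgf (−1.18) and Wisp1 (−1.89) below 0, and no member is among them.

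The genes whose profile was most like the mean of the members were sought among 12727 named genes that averaged 50 or more. Among those with the highest Pearson r over the 6 libraries were Otud1 (0.994), Parp2 (0.989), Marf1 (0.987) and Nmb (0.965). These r are the highest of all genes searched and describe the same 6 libraries, with no test. The members did not share 1 profile. Their r with the mean of the other members ran from −0.37 (Cyr61) and 0.08 (Klf6) to 0.92 (Junb). Otud1 stood at 447 to 500.3 normalised read counts in young and at 468, 581 and 503 in old replicates 1 to 3, so its range was far narrower than that of Fos. None of these 4 was called by limma (adjusted p of 0.412 to 0.633).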

How the data were processed

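Bulk RNA-seq libraries of 6 CBA/CaJ mice, 3 young and 3 old, were analysed. Purification used the miRNeasy Mini Kit and library construction the TruSeq RNA kit, and samples judged degraded or contaminated had been dropped, per the labels' protocols. The submitters' processing notes list Partek, TopHat2, DESeq2 and mm10 with neither role nor version. Strand and annotation are not given in the sources used here. Whether young and old libraries were sequenced together is not given either. The column headers give the same running number to 1 young and 1 old library, and if each age group had its own run, run and age cannot be told apart.

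The authors deposited 1 table of 17091 symbols, whose name holds DESeq2. Each deposited value is a signal, a read count divided by a size factor of the library, and 99.9% of values were within 0.1 of a whole number of reads after division by the step of the library. The authors deposited, beside these values, p-values raw and adjusted (the latter missing for 332 genes) and a signed fold change. The deepest library had 1.055 times the reads of the shallowest. Every sample is a separate mouse.

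The plan foresaw edgeR had the values been counts. As they are normalised, limma 3.58.1 (trend and robust, R 4.3.3) was run on log2(value + 1) with Benjamini-Hochberg adjustment. Fold changes on that scale understate changes of genes with few reads. The fit was tested on simulated data. With 3 against 3 mice the smallest p of an exact permutation test is 0.1, and none is reported. Alternatives were quantile normalisation, no trend, minimum means of 10 and 50, pseudocounts of 0.1 and 10, a replicate block, leaving out each library, a threshold of 0.01, the deposited p-values, and edgeR 4.0.16 and DESeq2 1.42.0 on recovered reads.

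The members and lists were chosen with earlier results of these data known. All members were named, with the 3 genes of smallest p and every called gene of each companion list, and the 5 genes most like the members' mean. A few genes picked this way are not reported here. Npas4, Ahsp and Trbc2 were listed but are not among the symbols. Gene positions are from GENCODE M21 and promoters from RefSeq, both GRCm38.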

Additional observations from a re-analysis of the deposited data

How the results depend on the processing

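Of 8 members, Egr1 and Egr3 aside, every alternative kept the direction. Egr1 had a log2 fold change of 0.12 with DESeq2 and with edgeR (both scalings), 0.11 in the authors' deposited table, and −0.67 to 0.57 without 1 library. Egr3 had −0.48 with DESeq2 and with edgeR, −0.49 in the authors' deposited table, and −0.82 to 1.73 without 1 library. The number of members called was 4 with DESeq2 and in the authors' deposited table, and 0 to 2 without 1 library (1, Jun, without young replicate 1; 1, Fos, without old replicate 1; 2, Klf6 and Cyr61, without old replicate 2). The number of companion genes called was 5, and it was 13 with DESeq2 and in the authors' deposited table, 1 without trend and robust estimation, 0 at a threshold of 0.01 and 0 to 5 without 1 library (0 without young replicate 2 and 1 without young replicate 3). Over all genes the 898 calls became 337 without trend and robust estimation, 210 at a threshold of 0.01, 1819 with DESeq2, 1818 in the authors' deposited table and 230 to 1134 without 1 library (561, 288 and 230 without young replicates 1, 2 and 3). With the replicate number as a block the calls were 406 over all genes, 1 among the companion genes and 0 among the members. Libraries that share a number did not deviate together (r of deviations −0.24, −0.10 and −0.09), and pairs with unlike numbers had −0.15 to 0.23. The labels do not say what a shared number marks, and these few r cannot settle whether it pairs mice. The cause of these changes was not tested. Fosb is the member that depth limits, with 13 to 73 recovered reads per library, and it has no value at a minimum mean of 50.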
